A study of Mus musculus with 26 samples.

Results

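Transcripts of 9 genes of the complement system were followed through all 5 experiments of an RNA-seq study of inhibitors of chromatin enzymes in degenerating mouse retina. The genes were C1qa, C1qb, C1qc, C3, C4b, C3ar1, C5ar1, Cfi and Serping1, chosen by symbol from the 37991 genes of the count table, and each was matched to 1 Ensembl gene. They cover the first component of the classical pathway, the central proteins of the cascade, receptors for the fragments it releases, and soluble inhibitors.

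Complement is a chain of plasma and tissue proteins in which C1q, bound to a surface, starts the cleavage of C4 and then of C3, whose fragments tag the surface for uptake and signal through receptors on phagocytes. In the retina microglia are the best known source of C1q, while C3, C4 and the inhibitors can also come from infiltrating phagocytes, glia, vessels and the pigment epithelium. Regulators such as factor I and the C1 inhibitor can end the cascade before it damages host cells.

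All mice carried the rd10 mutation of the rod gene Pde6b (strain B6.CXB1-Pde6brd10/Jrd10), received intraperitoneal injections from postnatal day 9 (PN9) and were sampled at PN24. Whole retinas came from 4 controls and 2 mice given DZNep at 1 to 1.5 mg/kg, 3 controls and 3 given UNC1999 at 15 mg/kg, 2 controls and 2 given UNC0642 at 7.5 mg/kg, and 3 controls and 3 given Romidepsin at 0.2 mg/kg. The study used DZNep and UNC1999 as inhibitors of the histone H3K27 methyltransferase EZH2, and the paper calls UNC1999 the more specific. UNC0642 is directed at the H3K9 methyltransferases G9a and GLP, and Romidepsin at histone deacetylases. In the last experiment rods were sorted by fluorescence from 2 control and 2 mice given GSK2879552, an inhibitor of the demethylase LSD1, at 4.2 mg/kg. These mice came from rd10 crossed with B6.Cg-Tg(Nrl-EGFP)1Asw/J, in which the Nrl promoter drives EGFP in rods, and their libraries were made with another kit than those of the retinas. The paper's methods name saline for controls, while UNC1999 was dissolved with DMSO, PEG300 and Tween-80. Its figure caption for UNC1999 says that controls there received only diluent, so their solvent is not clear. No wild-type retina was analysed here. In the labels, the number that ends the genotype and the number in the name UNC1999 grow by 1 from library to library, and all were read as the same strain and compound. The labels call the libraries biological replicates and do not say which animals or litters they came from, so the tests measure the spread between these libraries. The library names of the UNC1999 experiment belong to another series than those of the other retinas, so levels in it and a difference of series cannot be told apart.

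Retina libraries held between 13732959 and 36354094 counts on genes, and the smallest and largest rod libraries held 7289460 and 19864491. Levels are given as CPM, the usual scaling of counts to library size, with TMM factors over the 22 retinas together or over the 4 rod libraries, and fold changes come from a fit within each experiment. A count of 3, used as the floor, corresponds to 0.0825 to 0.412 CPM. The UNC0642 controls stood apart from the other control retinas, with the lowest summed levels of 10 rod markers (8187 and 8312 CPM, against 14738 CPM or more in other controls), and DZNep replicate 2 held 62.3 CPM of 5 lens genes against 0.150 to 1.63 CPM in the other retinas. In whole tissue, fewer cells of a type and less RNA per cell cannot be told apart.

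All 9 genes were above the floor in every retina. Per kilobase of exons, the median level over the 22 retinas was 44.1 CPM for C1qa, 43.6 for Serping1, 43.1 for C1qb, 25.8 for C1qc, 22.8 for C4b, 7.86 for C3, 4.36 for Cfi, 1.57 for C3ar1 and 0.566 for C5ar1. C1qa, Serping1 and C1qb were closer to each other than the spread between libraries, as were C1qc and C4b. In sorted rods C1qb and Serping1 were highest per kilobase, with medians of 3.35 and 2.23 CPM, and C5ar1 had no read in any of the 4 libraries. The plot of levels by library gives every value.

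**Figure D1:**
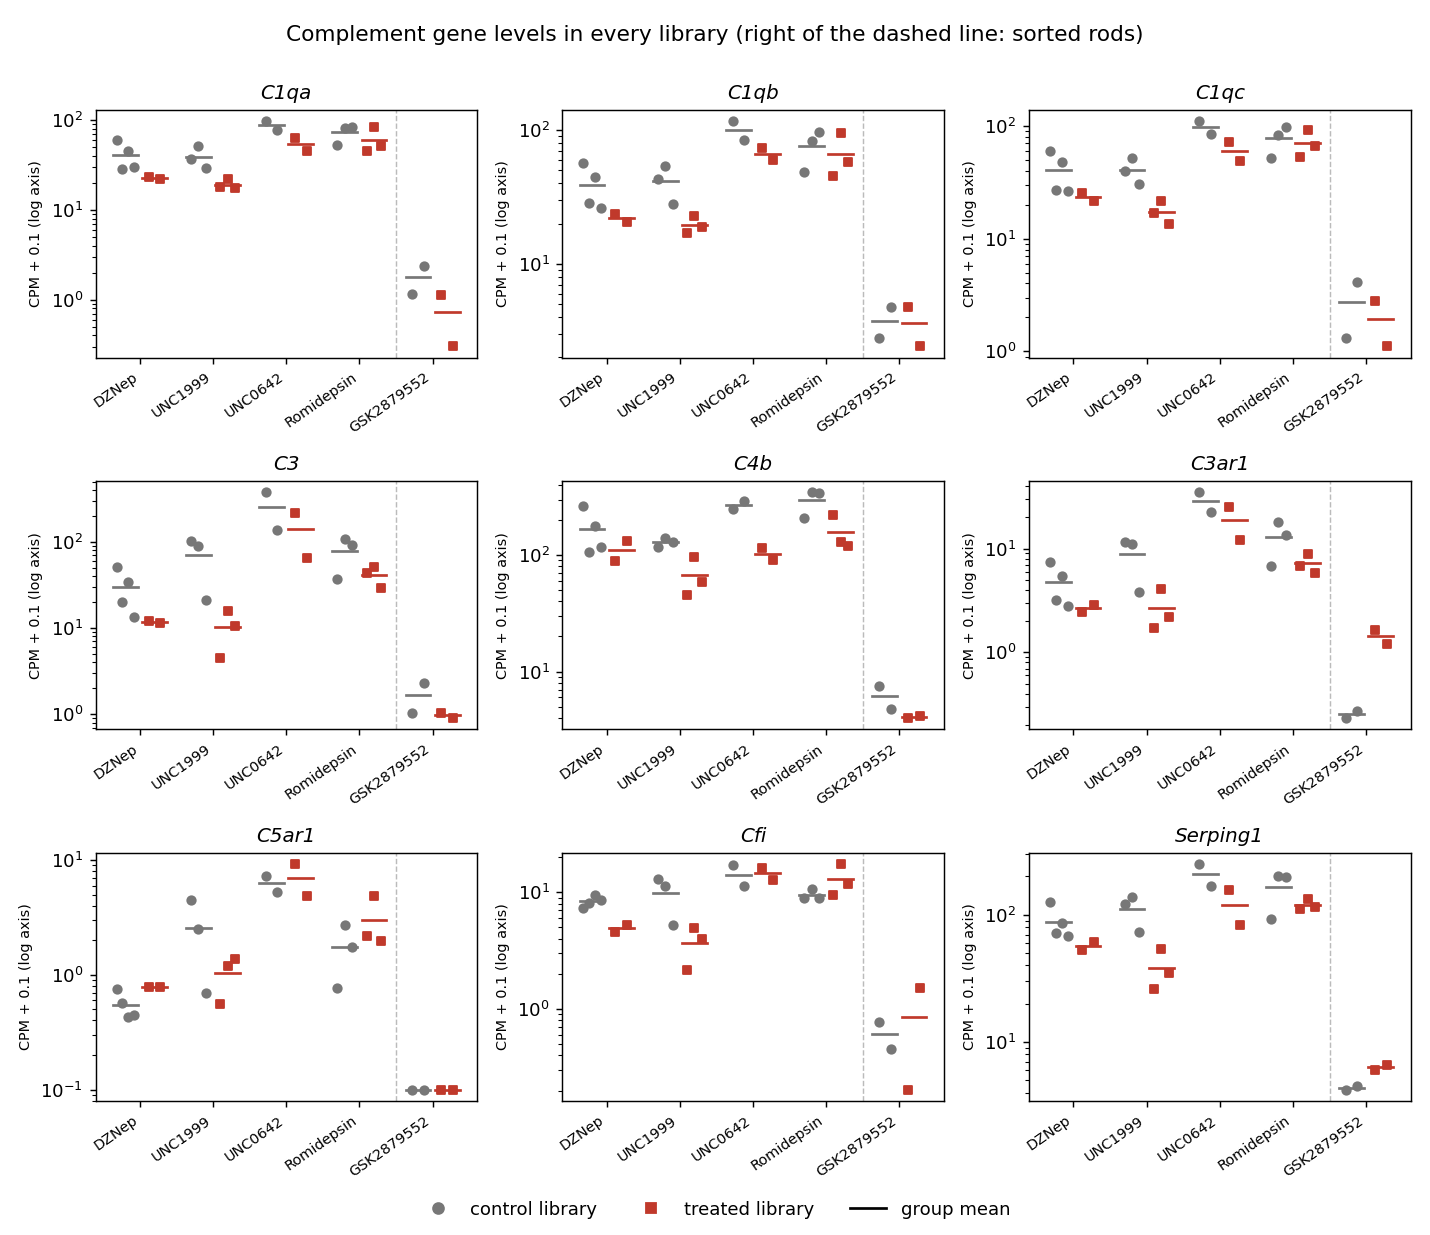
Levels of the 9 complement genes, 1 panel per gene, as CPM with 0.1 added on a logarithmic axis, for control libraries (grey circles) and treated libraries (red squares) of each experiment, with horizontal bars at the group means. Treated retinas lie below all their controls for C1qa, C1qb, C1qc and Serping1 in the DZNep, UNC1999 and UNC0642 experiments but overlap them with Romidepsin, and the sorted rods on the right are lower than every retina, with C5ar1 at 0.

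Changes were called at an adjusted p under 0.05 together with an absolute log2 fold change above 1, using edgeR's quasi-likelihood test over all genes. None of the 9 genes met both thresholds in any of the 5 experiments. At the adjusted p alone, 1 gene passed in 1 experiment by this test, the factor I gene Cfi, which fell with DZNep. There 9.72% of all genes tested were lower at that p, and 1 of 9 is near this share. Other tools, among them the likelihood ratio test that the study itself used, passed more of the 9 at that p. In its pathway analysis the paper reports the complement system as lowered by UNC1999. The likelihood ratio test passed 5 with DZNep, 8 with UNC1999, 2 with UNC0642 and 1 with Romidepsin, and DESeq2 passed 1, 8, 3 and 1. Without the filter on low counts the quasi-likelihood test passed 6, 8, 7 and 1, in the same order. The share of all genes passing at that p was not counted for these alternatives, so their counts stand without a background. C1qa, C1qb, C1qc, C3, C4b, C3ar1 and Serping1 had log2 fold changes below 0 in all 4 retina experiments, Cfi in 2 and C5ar1 in 1. That made 8 of 9 genes with DZNep (50.1% of all genes tested were below 0), 9 with UNC1999 (50.4%), 7 with UNC0642 (50.3%) and 7 with Romidepsin (51.1%), and 5 of 7 in sorted rods (51.2%). For all 9 genes the median log2 fold change was −0.81 with DZNep, −1.34 with UNC1999, −0.69 with UNC0642 and −0.30 with Romidepsin, where the median of all genes tested lay between −0.00881 and −0.00057. The genes are not independent of each other, and these medians describe them without a test.

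**Figure D2:**
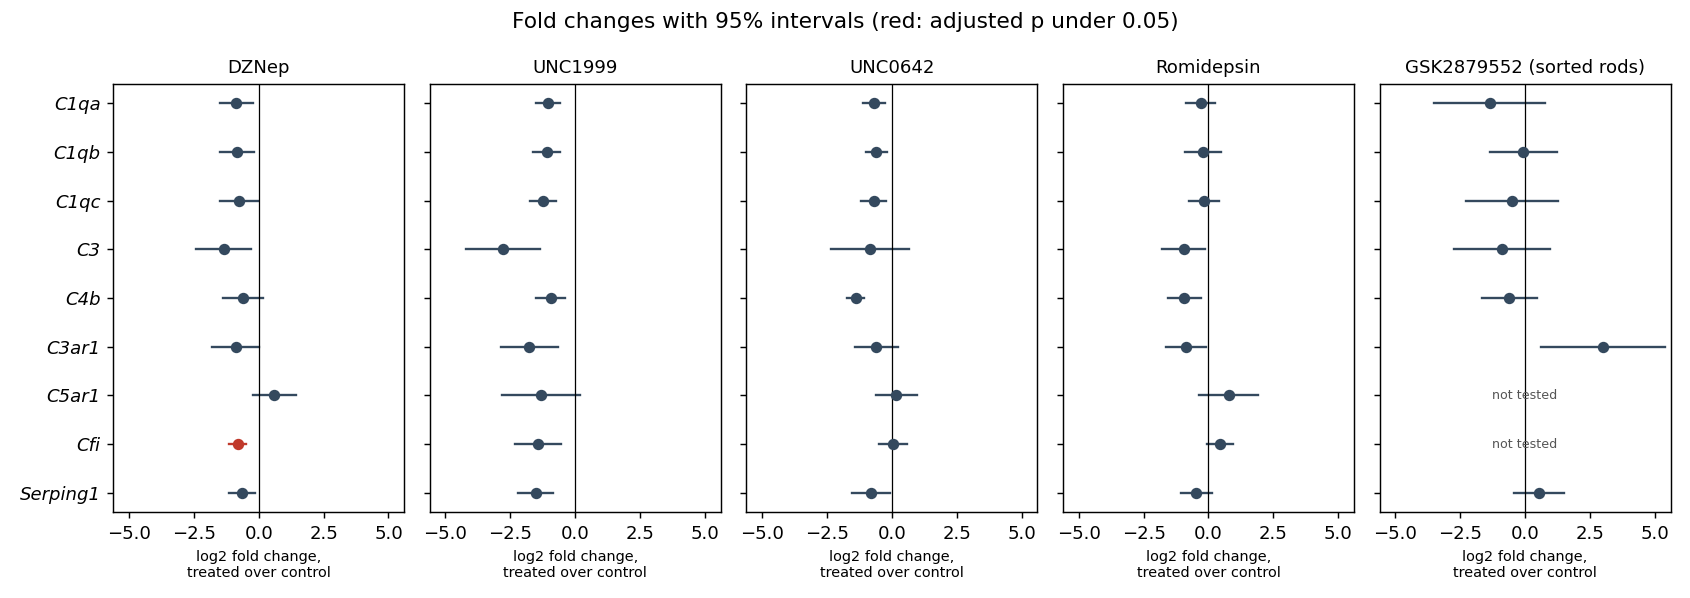
Log2 fold changes of treated over control for the 9 genes (rows) in the 5 experiments (panels), with 95% intervals from the quasi-likelihood fit. Red marks an adjusted p under 0.05, which Cfi reached with DZNep at −0.81. The UNC1999 points lie furthest to the left, down to −2.79 for C3, and the intervals for the sorted rods are among the widest.

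The chains of C1q, the recognition protein that starts the classical pathway, are encoded by neighbouring genes on the minus strand of chromosome 4. In NCBIM37, C1qb (ENSMUSG00000036905) lies at chr4:136436044-136442102, C1qc (ENSMUSG00000036896) at chr4:136445719-136448980 and C1qa (ENSMUSG00000036887) at chr4:136451832-136454718. Over the 22 retinas their log2 levels moved almost as 1, with Pearson's r of 0.984 to 0.990 between pairs and 0.948 to 0.970 after the group means were removed. Per length, C1qa made up 35.6% to 43.3% of C1q transcripts in every retina, C1qb 36.1% to 44.2% and C1qc 17.0% to 25.0%. The promoters of C1qb and C1qc are shown because these genes moved together, as 250 bases before to 50 after the start site in RefSeq's GRCm38.p6 (chr4:136886151-136886450 and chr4:136892865-136893164, minus strand, read 5′ to 3′). Capitals mark matches on either strand to the core of PU.1 sites (GAGGAA), to a C/EBP motif (TTNNGNAA) or to an NF-kB motif (GGGA, any 4 bases, CC).
C1qb: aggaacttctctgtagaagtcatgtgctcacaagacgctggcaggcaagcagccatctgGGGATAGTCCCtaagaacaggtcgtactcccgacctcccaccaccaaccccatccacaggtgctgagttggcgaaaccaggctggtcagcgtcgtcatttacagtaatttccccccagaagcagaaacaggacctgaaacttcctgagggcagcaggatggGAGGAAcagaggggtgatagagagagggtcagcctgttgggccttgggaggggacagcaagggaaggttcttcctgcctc
C1qc: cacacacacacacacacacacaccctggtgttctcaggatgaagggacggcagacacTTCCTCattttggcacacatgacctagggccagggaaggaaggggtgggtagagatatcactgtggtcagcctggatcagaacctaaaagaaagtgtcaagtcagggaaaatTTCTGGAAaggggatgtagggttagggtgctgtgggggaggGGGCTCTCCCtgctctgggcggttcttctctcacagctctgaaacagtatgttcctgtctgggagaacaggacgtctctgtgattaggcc
Both hold 1 PU.1 core, at 30 bases before the start site in C1qb and 193 before it in C1qc, a hexamer found in 28.3% of all 32851 promoters of this length. C1qb also holds 2 overlapping NF-kB matches on opposite strands (20.7% of promoters), and C1qc holds 1 NF-kB and 1 C/EBP match (40.7% of promoters). Neither holds an IRF (GAAA, any 2 bases, GAAA), STAT (TTCNNNGAA), AP-1 (TGANTCA) or E-box (CACGTG) match. C1qa, C4b, Cfi and Serping1 have no entry in this table.

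With DZNep, C1qa measured 59.8, 28.5, 45.8 and 29.7 CPM in the 4 controls and 23.4 and 21.9 in the treated retinas. C1qb measured 56.7, 28.5, 44.7 and 25.9 CPM against 23.4 and 20.3, and C1qc 59.7, 26.9, 48.0 and 26.3 against 25.4 and 21.4. Every treated value was below every control, but controls 2 and 4 were near the treated retinas. The log2 fold changes of −0.85 ± 0.28 (SE), −0.83 ± 0.29 and −0.77 ± 0.32 did not pass, with adjusted p = 0.0590, 0.0737 and 0.121.

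The lowest level of each C1q chain in any retina was found after UNC1999. C1qa measured 36.6, 51.7 and 29.1 CPM in controls and 17.8, 21.8 and 17.4 in treated retinas, C1qb 43.2, 53.4 and 27.7 against 16.8, 22.6 and 18.6, and C1qc 39.3, 51.3 and 30.6 against 16.8, 21.5 and 13.4. No treated value reached the lowest control. Log2 fold changes were −1.05 ± 0.20, −1.10 ± 0.23 and −1.24 ± 0.22 (SE), and the adjusted p of the quasi-likelihood test missed the threshold narrowly, at 0.0533, 0.0574 and 0.0533. The likelihood ratio test and DESeq2 called all 3 chains.

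The highest level of each chain was in UNC0642 control replicate 1. C1qa measured 98.4 and 77.5 CPM in controls and 62.9 and 46.0 in treated retinas, C1qb 117 and 84.1 against 72.6 and 59.6, and C1qc 111 and 84.0 against 71.6 and 48.3. The groups did not overlap, and the log2 fold changes of −0.69 ± 0.17, −0.61 ± 0.17 and −0.70 ± 0.20 (SE) had the same adjusted p = 0.299 in the quasi-likelihood test. Romidepsin left the chains overlapping with their controls. C1qa measured 53.5, 82.0 and 85.0 CPM in controls and 44.9, 84.2 and 51.4 in treated retinas, C1qb 48.3, 82.0 and 96.1 against 45.5, 95.3 and 57.3, and C1qc 52.0, 83.2 and 98.2 against 52.8, 92.3 and 65.7. Log2 fold changes were −0.30, −0.21 and −0.16 with SE from 0.25 to 0.30 (adjusted p = 0.551, 0.752 and 0.774). For C1qb and C1qc even the sign depended on 1 library: without Romidepsin control replicate 3 they were 0.01 and 0.04.

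The summed C1q level was set beside the summed level of 15 microglia markers (among them Aif1, Cx3cr1, P2ry12, Tmem119, Csf1r, Ctss, Trem2, Tyrobp and Cd68), none of which was at 0 throughout an experiment. The marker sum was lower in every treated retina than in its controls in all 4 experiments: 212 and 236 CPM against 255 to 508 with DZNep, 164 to 211 against 267 to 454 with UNC1999, 390 and 604 against 647 and 955 with UNC0642, and 326 to 443 against 480 to 741 with Romidepsin. Of the 15 markers, 14, 14, 15 and 15 had log2 fold changes below 0, in the same order, and Mpeg1 and Fcrls with DZNep and Ctss and Mpeg1 with Romidepsin passed at the adjusted p. Monocyte and macrophage markers were below 0 as well, in 4 of 5 tested genes with DZNep, all 3 with UNC1999, all 6 with UNC0642 and 5 of 7 with Romidepsin. Lyz2, for macrophage lysozyme, passed with DZNep and UNC1999 and Ms4a7 with DZNep and Romidepsin, and the summed levels overlapped between groups in the UNC0642 experiment alone. Markers of other cell types moved with the inhibitors too. With UNC1999 the rod markers summed to 51888 to 69897 CPM against 20197 to 37925 in controls, and those of the retinal pigment epithelium to 900 to 1076 against 467 to 689, where 6 of 8 passed as higher. All 7 vessel markers were below 0 there, with sums of 367 to 482 CPM against 578 to 647, and none passed. With DZNep the rod markers summed to 56266 and 57924 CPM against 18092 to 30628. The part of cell numbers and of these cell types in the complement levels was not tested.

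C1q over markers was 0.298 to 0.350 in DZNep controls and 0.300 and 0.305 in treated retinas, 0.286 to 0.344 and 0.278 to 0.313 with UNC1999, and 0.341 and 0.380 against 0.343 and 0.394 with UNC0642. All 3 pairs of groups overlapped in this sum. In Romidepsin-treated retinas the ratio was 0.403, 0.614 and 0.535 against 0.320, 0.355 and 0.377 in their controls, and all 3 treated values were above the other 19 retinas, whose highest was 0.394. C1q thus stood higher relative to the sum of the microglia markers in these retinas, the lowest of them by little, while its own level overlapped with controls. The marker sum was lower in every treated retina, so an unchanged transcript would also tend to stand higher over it. The ratio is a description with no test, and the share of all genes that separate on such a ratio was not counted. The ratio of group means was 1.47, and between 1.34 and 1.64 when 1 library was left out. With each marker alone as denominator, an alternative added after the data were seen, the ratio of means was above 1 for 14 of 15 markers, all but Cd68, and the treated retinas lay above all controls for 5, namely Csf1r, Ctss, Tyrobp, Laptm5 and Mpeg1, and below them for 0. Single markers also separated the groups in the other experiments, in both directions: treated retinas lay above all controls for 2 markers and below for 6 with DZNep, above for 2 and below for 2 with UNC1999, and above for 2 and below for 3 with UNC0642.

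**Figure D3:**
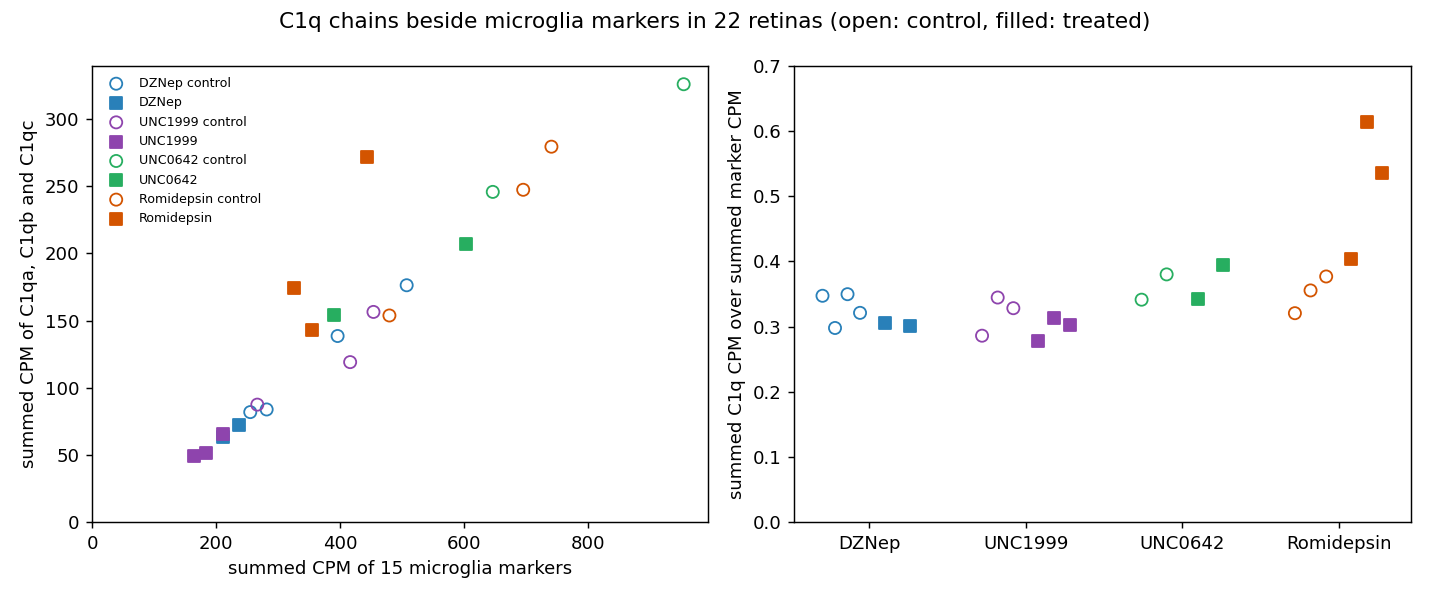
Left, summed C1q level (CPM of C1qa, C1qb and C1qc) against the summed level of 15 microglia markers in 22 retinas, and right, their ratio by experiment; open circles are controls and filled squares treated retinas. Retinas lie near 1 line except those given Romidepsin, whose ratios of 0.403 to 0.614 are above all others.

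C3, at chr17:57343397-57367559 (ENSMUSG00000024164, minus strand), is the protein on which all routes of activation meet, and C3ar1, at chr6:122797156-122806179 (ENSMUSG00000040552, minus strand), is the receptor of its fragment C3a. The pair followed each other closely, with r = 0.984 over the 22 retinas and 0.961 after group means were removed. Their promoters (GRCm38.p6, chr17:57228087-57228386 and chr6:122856108-122856407, both minus strand, 5′ to 3′) are shown for that reason, with the matches to the same motifs in capitals.
C3: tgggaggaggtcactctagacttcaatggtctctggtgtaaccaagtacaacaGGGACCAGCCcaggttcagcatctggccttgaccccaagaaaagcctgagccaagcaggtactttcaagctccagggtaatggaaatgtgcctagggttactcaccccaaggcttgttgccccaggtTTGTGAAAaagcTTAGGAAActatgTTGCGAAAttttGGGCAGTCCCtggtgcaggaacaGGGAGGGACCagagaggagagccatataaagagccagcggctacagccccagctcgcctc
C3ar1: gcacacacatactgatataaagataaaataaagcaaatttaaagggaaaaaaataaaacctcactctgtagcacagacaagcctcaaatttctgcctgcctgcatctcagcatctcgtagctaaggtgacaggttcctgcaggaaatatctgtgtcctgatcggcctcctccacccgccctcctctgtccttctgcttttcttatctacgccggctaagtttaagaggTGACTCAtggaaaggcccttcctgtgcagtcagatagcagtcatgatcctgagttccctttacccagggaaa
C3 holds 3 C/EBP and 3 NF-kB matches, the C/EBP ones at 70, 58 and 45 bases before the start site. C3ar1 holds neither and has 1 AP-1 match at 22 bases before it, a motif in 7.81% of all promoters. No PU.1 core, IRF (3.44% of promoters), STAT (8.30%) or E-box (7.15%) match was in either window.

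C3 showed the widest range of the 9 genes, from 4.36 CPM in UNC1999 replicate 1 to 374 CPM in UNC0642 control replicate 1. In the UNC1999 experiment it measured 102, 90.6 and 21.0 CPM in controls and 4.36, 15.7 and 10.6 in treated retinas. The groups did not overlap, yet control replicate 3 was closer to the treated retinas than to the other controls. The log2 fold change of −2.79 ± 0.62 (SE, 95% interval −4.21 to −1.36) had an adjusted p = 0.0607 by the quasi-likelihood test. C3ar1 measured 11.6, 11.1 and 3.69 CPM against 1.63, 3.99 and 2.08, with 1 treated value above the lowest control (log2 fold change −1.77 ± 0.47 (SE), adjusted p = 0.0836).

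DZNep-treated retinas held 11.8 and 11.5 CPM of C3 against 50.4, 20.2, 34.6 and 13.3 in controls, all above the treated values. The log2 fold change was −1.34 ± 0.47 (SE, adjusted p = 0.0705). Without control replicate 4, the control nearest the treated retinas, it was −1.59 and was called (adjusted p = 0.0132). Over all libraries left out 1 at a time it ran from −1.59 to −0.96. C3ar1 was at 7.36, 3.08, 5.34 and 2.71 CPM against 2.36 and 2.74, overlapping by 1 control (−0.88 ± 0.40 (SE), adjusted p = 0.147). With Romidepsin, C3 measured 36.7, 109 and 91.5 CPM in controls and 44.0, 50.4 and 29.2 in treated retinas, and C3ar1 6.76, 18.1 and 13.5 against 6.72, 8.86 and 5.77. Control replicate 1 lay among the treated retinas for both genes. Log2 fold changes were −0.95 ± 0.36 and −0.86 ± 0.33 (SE, adjusted p = 0.197 and 0.202).

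In the UNC0642 experiment C3 was 374 and 138 CPM in controls and 219 and 65.3 in treated retinas, so that the spread within each group exceeded the difference between them. The log2 fold change of −0.85 ± 0.62 (SE, adjusted p = 0.517) turned to 0.04 without control replicate 1. C3ar1 measured 34.7 and 22.4 CPM against 25.2 and 12.1 (−0.61 ± 0.34 (SE), adjusted p = 0.421).

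C4b, at chr17:34865325-34880827 (ENSMUSG00000073418, minus strand), encodes C4, which is cleaved after C1q has bound. Its neighbour C4a is nearly identical, and reads may be split between them. Counts on C4a were 0.181% to 5.63% of those on both genes in retinas, and 21.6% to 23.3% in sorted rods, and no call for C4b differed when both genes were summed. C4b was the gene furthest below control with UNC0642. It measured 248 and 292 CPM in controls and 115 and 90.3 in treated retinas, with each treated value under the lower control by more than the spread of either group. Its log2 fold change of −1.40 ± 0.14 (SE, 95% interval −1.725 to −1.07) had the third smallest p of the 16321 genes tested by edgeR's quasi-likelihood test (unadjusted 3.36e-05), and the adjusted p was 0.183. No gene at all was called by that test in this experiment. DESeq2 called 4 genes and the likelihood ratio test 34, C4b among them, and leaving out UNC0642 control replicate 1 or 2 gave an adjusted p = 0.000307 or 0.0148. Without UNC0642 replicate 2 it was 0.764. C4a had a log2 fold change of 0.07 (adjusted p = 0.951).

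With UNC1999, C4b measured 118, 141 and 129 CPM in controls and 45.5, 96.9 and 58.9 in treated retinas, which did not overlap (log2 fold change −0.95 ± 0.24 (SE), adjusted p = 0.0738). With Romidepsin it measured 207, 345 and 339 CPM against 222, 130 and 119, and treated replicate 1 was above control replicate 1. The log2 fold change was −0.93 ± 0.28 (SE, adjusted p = 0.120). Without Romidepsin replicate 1, the treated retina nearest the controls, it was −1.27 and was called (adjusted p = 0.0424). With each other library left out it ran from −1.13 to −0.76 and was not called (adjusted p from 0.0992 to 0.323). C4a had a log2 fold change of 0.89 there (adjusted p = 0.172) and of 0.69 with UNC1999 (adjusted p = 0.269). DZNep left C4b overlapping, at 263, 106, 179 and 117 CPM against 89.5 and 132 (−0.61 ± 0.34 (SE), adjusted p = 0.231), and C4a was at −0.51 (adjusted p = 0.338).

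C5ar1, the receptor for the inflammatory fragment C5a, at chr7:16832092-16844889 (ENSMUSG00000049130, minus strand), was the lowest of the 9 genes and the one that departed most from the common direction. With DZNep it measured 0.652, 0.467, 0.328 and 0.349 CPM in controls and 0.688 and 0.686 in treated retinas, both above all controls, as for 25.5% of all genes, though the highest control was close (log2 fold change 0.61 ± 0.37 (SE), adjusted p = 0.266). With Romidepsin the values were 0.669, 2.61 and 1.64 CPM against 2.09, 4.79 and 1.86 (0.78 ± 0.50 (SE), adjusted p = 0.429), and with UNC0642 7.20 and 5.23 against 9.15 and 4.76 (0.17 ± 0.33 (SE), adjusted p = 0.825). UNC1999 gave 0.455, 1.11 and 1.27 CPM against 4.40, 2.42 and 0.599 in controls, at −1.34 ± 0.65 (SE, adjusted p = 0.262). The groups overlapped in these 3 experiments. Relative to the sum of the microglia markers, C5ar1 was above all controls in every treated retina of the DZNep, UNC0642 and Romidepsin experiments. That sum was lower in every treated retina, so a transcript that did not change would also tend to stand higher over it. The share of all genes that separate on this ratio was not counted. Of the other genes outside C1q, set against the same sum, C3 and Serping1 were below all controls with UNC1999 (0.0236 to 0.0743 against 0.0786 to 0.246 for C3, and 0.142 to 0.257 against 0.274 to 0.302 for Serping1). C4b and Serping1 were below them with UNC0642, Serping1 by little (0.213 and 0.260 against 0.262 in both controls), and Serping1 was above them with Romidepsin (0.298 to 0.356 against 0.193 to 0.287).

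Cfi, at chr3:129539655-129578246 (ENSMUSG00000058952, plus strand), encodes factor I, the protease that inactivates C3b and C4b. It was the gene of the 9 that passed at the adjusted p with DZNep. The 4 controls held 7.31, 8.03, 9.33 and 8.45 CPM and the treated retinas 4.46 and 5.18, with no overlap. Control retinas averaged 8.28 ± 0.843 CPM (SD, n = 4) and treated ones 4.82 ± 0.513 CPM (SD, n = 2). On the log2 scale the change was −0.81 ± 0.14 (SE, 95% interval −1.13 to −0.49), with an adjusted p = 0.00524 by edgeR's quasi-likelihood test. In this experiment 9.72% of all genes tested were lower at that threshold and 0.686% were lower at both thresholds. Without DZNep replicate 1 the adjusted p was 0.0829, and with all 22 retinas in 1 fit it was 0.163. DZNep replicate 2 is the library with lens transcripts, and without it the adjusted p was 0.0175. All 7 markers of Mueller glia also fell in this experiment, from summed levels of 6725 to 7553 CPM in controls to 5307 and 5907 CPM. They were lower as well with Romidepsin (7 of 7, sums of 4366 to 5249 against 6256 to 7505 CPM) and UNC0642 (6 of 7, 3069 and 3228 against 3890 and 4755). Cfi was at 0.44 and 0.03 log2 units there. With UNC1999 the sums overlapped (3830 to 5901 against 3447 to 5736 CPM) and Cfi was at −1.43. The part of these cells in the Cfi result was not tested.

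UNC1999 gave 2.08, 4.85 and 3.88 CPM of Cfi against 12.9, 11.3 and 5.19 in controls, without overlap (−1.43 ± 0.39 (SE), adjusted p = 0.0845). With Romidepsin it measured 9.47, 17.4 and 11.6 CPM against 8.77, 10.5 and 8.78 (0.44 ± 0.23 (SE), adjusted p = 0.323), and with UNC0642 16.2 and 12.6 against 16.9 and 11.3 (0.03 ± 0.22 (SE), adjusted p = 0.961). In these 2 experiments the groups overlapped, and Cfi over the sum of the microglia markers was higher in every treated retina than in any control (0.0267 to 0.0393 against 0.0118 to 0.0183 with Romidepsin). The limits given for the C5ar1 ratio hold for this one too.

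Serping1, at chr2:84605544-84615601 (ENSMUSG00000023224, minus strand), encodes the C1 inhibitor, which blocks the proteases attached to C1q. With UNC1999 it measured 121, 137 and 72.9 CPM in controls and 26.1, 54.2 and 34.8 in treated retinas, the largest separation in log2 units after C3 and C3ar1 (−1.52 ± 0.30 (SE), adjusted p = 0.0535). With DZNep the values were 126, 71.7, 86.7 and 68.3 CPM against 52.8 and 61.5 (−0.64 ± 0.22 (SE), adjusted p = 0.0700). With UNC0642 they were 250 and 170 CPM against 157 and 83.2 (−0.81 ± 0.30 (SE), adjusted p = 0.330). In all 3 the treated retinas lay below every control. With Romidepsin it measured 92.6, 200 and 199 CPM against 110, 132 and 116, where control replicate 1 was the lowest of the 6 (−0.47 ± 0.26 (SE), adjusted p = 0.363).

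Counted over the 9 genes, all treated retinas were below all controls for 6 with DZNep, where 20.6% of all genes tested showed that separation, for 7 with UNC1999 (12.9% of all genes), for 5 with UNC0642 (24.8%) and for 0 with Romidepsin (12.1%). At an unadjusted p under 0.05, 6 of 9 were lower with DZNep against 17.2% of all genes, 8 with UNC1999 against 11.9%, 5 with UNC0642 against 6.80% and 3 with Romidepsin against 9.46%. None was higher at that p, where 19.3%, 11.8%, 7.95% and 9.92% of all genes were, in the same order. Both thresholds were met by 0 of 9 in each experiment by the quasi-likelihood test, beside 0.0697% of all genes lower with UNC1999, 0.156% with Romidepsin and 0% with UNC0642. Other tools gave other counts. With UNC1999, the likelihood ratio test, DESeq2 and a fit of all 22 retinas each called the same 7 genes lower (the C1q chains, C3, C3ar1, Cfi and Serping1). Without UNC1999 control replicate 3, the control lowest in 8 of the 9 genes, the quasi-likelihood test called 8. Calls among all genes rose as well, from 58 in the main fit to 469, 354, 437 and 806, in the same order. The likelihood ratio test also called C3 with DZNep and C4b with UNC0642, DESeq2 called C4b with UNC0642, and neither called any of the 9 with Romidepsin.

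Whether the inhibitors differed from each other was tested as the difference between their log2 fold changes, in 6 pairs, on all 22 retinas. Doses and solvents differ between inhibitors, so each value compares treatments as given. UNC1999 less Romidepsin was below 0 for all 9 genes and passed for 1 of them, Cfi, which was 1.88 lower on the log2 scale with UNC1999 (SE 0.425, 95% interval −2.77 to −0.99, adjusted p = 0.0170 by edgeR's quasi-likelihood test). In that contrast 5.11% of all genes passed at an adjusted p under 0.05, and 2.96% passed below 0. Without UNC1999 control replicate 1 the difference was −1.64 and the adjusted p 0.0615, and with the replicate number as a block it was −1.79 and 0.0677. For C1qc, C3, C5ar1 and Serping1 the same contrast was −1.08, −1.83, −2.12 and −1.06 with unadjusted p under 0.05 and adjusted p = 0.160, 0.226, 0.126 and 0.183.

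DZNep and UNC1999, both used in the study as EZH2 inhibitors, did not differ past the threshold for any of the 9 genes (0 at an unadjusted p under 0.05), nor for more than 0.00579% of all genes. All 9 differences were above 0, since UNC1999 lay further below its controls, and the intervals were wide, from −0.68 to 1.07 for C1qa, from −0.50 to 3.38 for C3 and from −0.31 to 1.57 for Cfi. A difference of 1 log2 unit is inside each of these. DZNep less UNC0642 and Romidepsin less UNC0642 likewise gave 0 of the 9 at either p, against 0.0232% and 0.0174% of all genes at the adjusted p. DZNep less Romidepsin, where 0.289% of all genes passed, was −1.25 for Cfi (95% interval −2.17 to −0.32, adjusted p = 0.203). UNC1999 less UNC0642, where 0.0116% passed, was −1.45 for the same gene (−2.43 to −0.48, adjusted p = 0.263), and in both contrasts Cfi was the 1 gene of the 9 with an unadjusted p under 0.05.

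**Figure D4:**
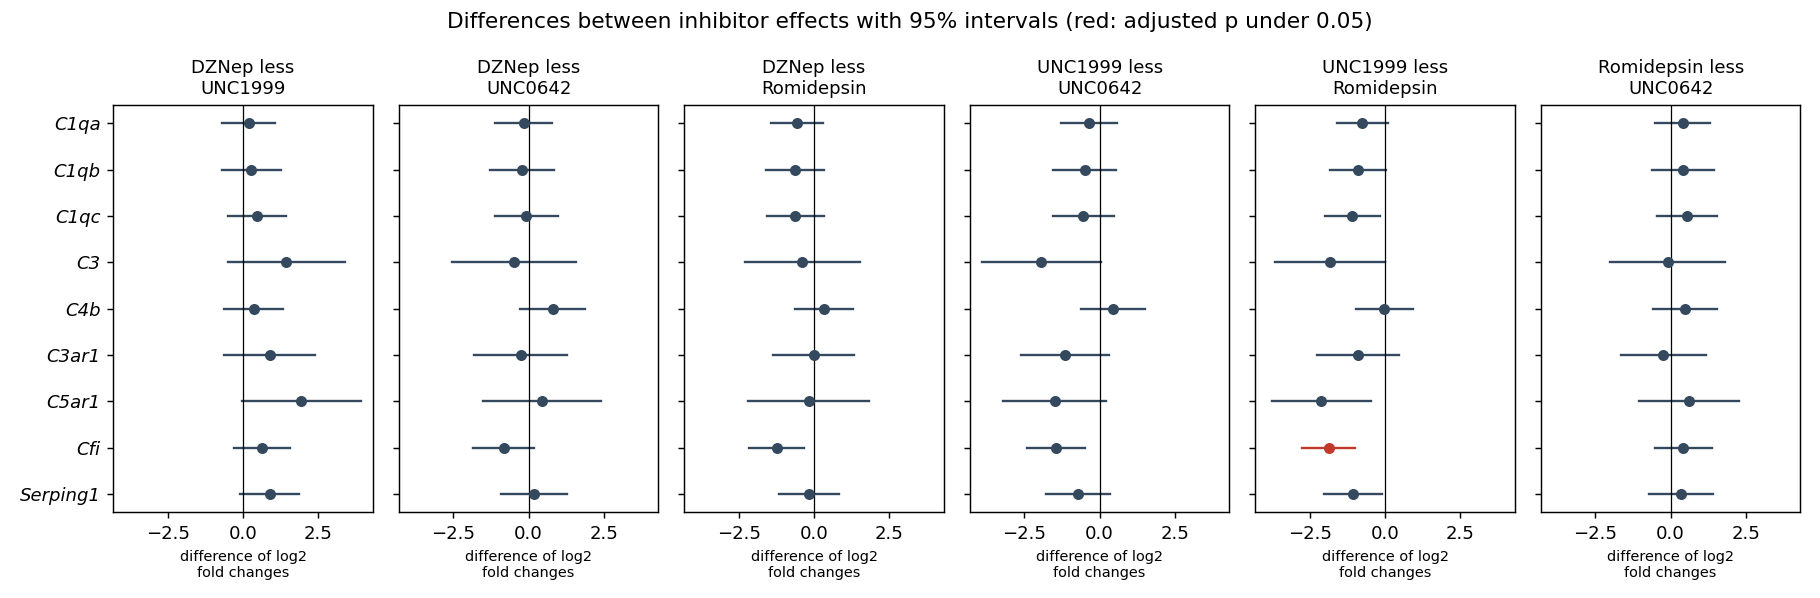
Differences between the log2 fold changes of pairs of inhibitors for the 9 genes (rows), with 95% intervals from 1 fit of the 22 retinas. The red point is Cfi in UNC1999 less Romidepsin (−1.88), the 1 difference with an adjusted p under 0.05, and C4b lies near 0 in the same panel at −0.02.

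In sorted rods the 9 genes were lower than in every retina. C1qa, C3ar1, Cfi and C5ar1 had at least 1 library at or under the floor of 3 counts, while Serping1 held 31 to 115 counts, C4b 40 to 80 and C1qb 20 to 90. Counts of C1qa were 8 and 39 in controls and 20 and 2 after GSK2879552, and those of C3 were 7 and 38 against 18 and 8. C4b measured 7.48 and 4.68 CPM in controls and 3.90 and 4.03 after treatment, and Serping1 4.14 and 4.39 against 5.97 and 6.55, each without overlap. C1qb, at 2.67 and 4.62 CPM against 4.67 and 2.32, and C1qc, at 1.20 and 4.04 against 2.70 and 1.01, overlapped. Summed C1q was 4.94 and 10.9 CPM in controls and 8.41 and 3.53 in treated rods, with overlap, and the microglia markers summed to 69.5 to 82.3 CPM. C1q over markers was 0.0507 to 0.133, below every retina, in libraries made with another kit. Log2 fold changes were −1.37 ± 0.94 for C1qa, −0.06 ± 0.57 for C1qb, −0.51 ± 0.78 for C1qc, −0.88 ± 0.82 for C3, −0.60 ± 0.46 for C4b and 0.55 ± 0.42 for Serping1 (SE), with adjusted p from 0.987 to 0.998. C3ar1 went the other way, with 1 and 3 counts (0.134 and 0.175 CPM) in controls and 30 and 11 counts (1.56 and 1.11 CPM) in treated rods. The ratio of pooled counts was 8.64, with an exact Poisson interval from 3.13 to 33.2 that covers counting error only, and the quasi-likelihood fit gave a log2 fold change of 3.00 ± 1.04 (SE, p = 0.0190, adjusted p = 0.984). The treated rods were below both controls for C1qa, C3 and C4b (17.3% of all genes) and above them for C3ar1 and Serping1 (15.9%). For C1qa and C3 the higher treated and the lower control value were almost equal, at 1.04 against 1.07 CPM and 0.93492 against 0.93496 CPM. Of all genes tested in this experiment 2.78% were higher and 2.13% lower at an unadjusted p under 0.05, against 1 (C3ar1) and 0 of the 7 tested here. C3ar1 passed the filter on low counts only through the treated rods, where it was high, so its p lends no support. No gene was called by the quasi-likelihood test, against 47 by DESeq2 and 68 by the likelihood ratio test, none of them one of the 9. Cfi (5 and 6 against 2 and 14 counts) and C5ar1 (0 counts) were too low to be tested. For C1qa the ratio of pooled counts was 0.394, with an exact Poisson interval from 0.226 to 0.668 for counting error only. Markers of other cell types moved in these libraries. Those of Mueller glia summed to 383 and 395 CPM in treated rods against 207 and 286 in controls, with all 7 above 0, and those of vessels to 60.4 and 63.6 against 40.6 and 45.4. Genes of glial reactivity summed to 39.6 and 40.3 CPM against 121 and 181. None of these passed, and their part in the values of C3ar1, Serping1 and C4b was not tested.

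The other genes of the system were counted in the same fits, 45 by role. Terminal components were all but missing. C8g, of 7 genes, was the one high enough to be tested, and C9 was at 0 in every library of the DZNep, UNC1999 and UNC0642 experiments. Among the genes that start the lectin and alternative routes, Mbl1 and Mbl2 had no read in any retina. With DZNep, 22 of 25 tested genes had log2 fold changes below 0, beside 50.1% of all genes, and 7 passed at the adjusted p, 6 lower and 1 higher, where 9.72% and 12.9% of all genes did. Those that fell were Clu, for clusterin, an inhibitor of the terminal complex (−0.51 ± 0.07, adjusted p = 0.00231), Cd93, a surface protein once taken for a C1q receptor (−0.45 ± 0.10, 0.0131), Csmd2, of a family of membrane regulators (−0.38 ± 0.10, 0.0226), Itgax, a chain of complement receptor 4 (−1.73 ± 0.46, 0.0264), Susd4, a membrane regulator (−0.21 ± 0.06, 0.0265), and Cfp, for properdin, which stabilises the C3 convertase (−0.49 ± 0.15, 0.0458; errors are SE and p adjusted). Cfp was added to the named genes after its values were seen.

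Itgax measured 3.77, 1.49, 1.97 and 1.55 CPM in controls and 0.688 and 0.610 after DZNep, and it was the 1 gene of the 45 to pass both thresholds. That call was lost without either treated library (adjusted p = 0.173 and 0.1001) and with all retinas in 1 fit (0.139). Vtn, for vitronectin, another inhibitor of the terminal complex, rose from 498, 386, 458 and 318 CPM to 716 and 729 (0.79 ± 0.14 (SE), adjusted p = 0.00604 by the quasi-likelihood test). All 10 rod markers were also higher at the adjusted p in this experiment. With UNC1999 23 of the 45 genes were tested and 17 had log2 fold changes below 0, where 50.4% of all genes did. None passed by the quasi-likelihood test, where 0.501% of all genes were higher and 0.101% lower at that threshold. At an unadjusted p under 0.05, 10 were lower and 1 higher, against 11.9% and 11.8% of all genes. Other tools passed more, 7 by DESeq2 (C1ra, Clu, Vtn, Cr1l, Itgam, Itgax and Itgb2) and 8 by the likelihood ratio test, which added Cd93. For these tools the share of all genes at the adjusted p alone was not counted. Among these genes the 3 lowest log2 fold changes with UNC1999 were those of Itgax (−2.59) and Itgb2 (−2.05), chains of complement receptors, and of C1ra (−1.71), a protease of the C1 complex, followed by the receptor chain Itgam (−1.66). None of the 4 passed by the quasi-likelihood test, and they were picked by these values, outside the rule for named genes. No gene of the 45 passed with UNC0642, Romidepsin or GSK2879552 by the quasi-likelihood test. At an unadjusted p under 0.05, 2 of 24 tested were lower and 2 higher with UNC0642 (6.80% and 7.95% of all genes), 5 of 24 lower and 1 higher with Romidepsin (9.46% and 9.92%), and 1 of 14 lower in sorted rods (2.13%). The counts with UNC0642 were near these shares.

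**Figure D5:**
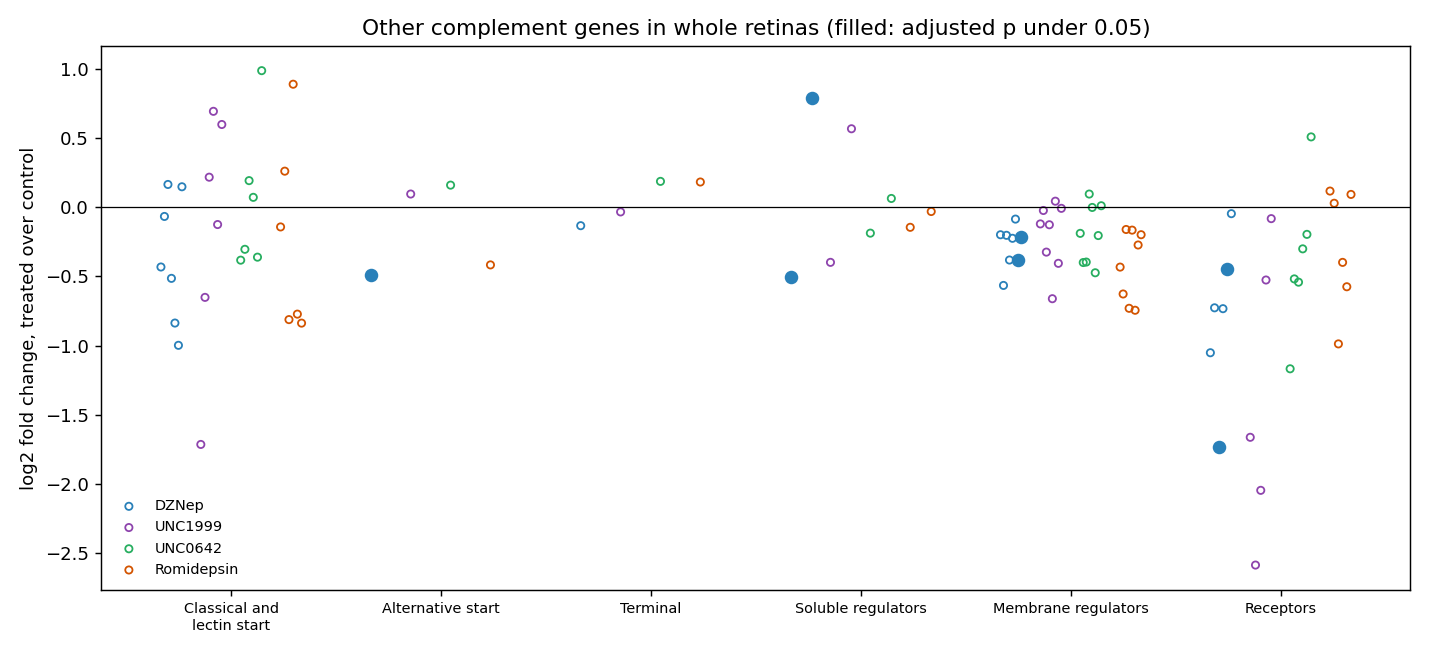
Log2 fold changes of the other complement genes by role in the 4 retina experiments, 1 point per tested gene, coloured by inhibitor. Filled points passed at an adjusted p under 0.05: 7 with DZNep, of which Vtn (0.79) was higher.

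Genes with the most similar pattern over the 22 retinas were sought among 17216 genes by Pearson's r of log2 CPM, as a description across libraries that share batches, controls and cell makeup. For the mean of the C1q chains they were Fcgr3 (r = 0.978), Grn (0.974) and Olfml3 (0.967), and after the group means were removed the same genes had r of 0.909, 0.932 and 0.864. For C3 they were Lcp1, Vav1 and Cyth4 (0.976 to 0.979), for Serping1 AB124611, Nckap1l and Ptprc (0.958 to 0.965), for Cfi Elk3, Fkbp10 and Tmem140 (0.920 to 0.925) and for C4b Pgcp, Ptplad2 and Sepp1 (0.877 to 0.896). C4b and Cfi had less close neighbours than the others. The lowest r between any of the 9 genes was that of C4b with C5ar1 (0.240), followed by C4b with Cfi (0.531, and 0.125 after group means were removed).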

How the data were processed

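RNA-seq was done on 22 whole retinas and 4 libraries of sorted rods. According to the study's methods and the submitters' processing notes, the authors trimmed reads with BBDuk, aligned them to NCBIM37 (mm9) with HISAT2 2.2.1 and counted them per gene with HTSeq 0.11.2, and they deposited raw counts, which are not normalized. Whether the counting used strand is not given in the sources used here. Of the 37991 gene identifiers, 37205 had a symbol. No column of the table was left unused (0 columns). The 9 genes and the gene lists were chosen with earlier results of these data known.

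Each treatment was compared with its own controls in edgeR 4.0.16 (R 4.3.3, limma 3.58.1) by filterByExpr, TMM scaling and the quasi-likelihood F test, with Benjamini-Hochberg adjustment over all genes tested, and genes were called where the adjusted p was under 0.05 and the log2 fold change beyond 1 either way. Intervals are 95%. Differences between inhibitors were contrasts in 1 fit of the 22 retinas. Levels are CPM on TMM factors over the retinas jointly or over the rods. Intervals and floors on counts cover counting error only. Named genes were the 9, the other complement genes at an adjusted p under 0.05 (at most the 6 with the smallest p in each experiment), C4a, and the 3 genes most correlated with each target by log2 CPM with a prior count of 2. Outside this rule, Cfp with DZNep and Itgax, Itgb2, C1ra and Itgam with UNC1999 were named after their values were seen. 1 further gene of the complement list is not reported here and was left out of its counts. Promoters came from RefSeq. All 23 pairs of replicates differed by more than sampling noise (smallest chi-square per gene 3.89). The fits were tested on simulated counts, and figures were drawn in Python 3.11.15 with matplotlib 3.10.9.

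The study's own test was edgeR's likelihood ratio test, which was kept here as an alternative. Results were recomputed with that test, DESeq2 1.42.0, RLE scaling, no filter, at least 10 counts in every library and no fold threshold. Further alternatives were all retinas in 1 fit, C4a and C4b summed, a replicate block, and leaving out each library. The ratio by single marker and by library left out, and the recount of the other complement genes, were chosen after seeing the data.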

Additional observations from a re-analysis of the deposited data

Results flagged for a closer look

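In the main fit, the effect of UNC1999 on Cfi differed from that of Romidepsin by an interaction contrast over 22 retinas. The log2 fold change was −1.43 with UNC1999 and 0.44 with Romidepsin in their own experiments. Neither passed there (adjusted p = 0.0845 and 0.323). The difference was −1.88 with an adjusted p = 0.0170 by edgeR's quasi-likelihood test, in a contrast where 5.11% of all genes passed. It did not pass without UNC1999 control replicate 1 (adjusted p = 0.0615) or with the replicate number as a block (0.0677). All 3 UNC1999-treated retinas lay below their controls, and the Romidepsin-treated retinas overlapped with theirs. The libraries of these experiments belong to different series, and their part in the difference was not tested.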

How the results depend on the processing

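The counts of the 9 genes called were 0 in each main comparison and moved most with UNC1999: 7 by the likelihood ratio test, by DESeq2, without the filter and with all retinas in 1 fit, and 0 to 8 when 1 library was left out (8 without UNC1999 control replicate 3). With DZNep the count was 1 by the likelihood ratio test, without the filter (C3 in both) and without the fold threshold (Cfi), and 0 to 1 with a library left out (C3 without control replicate 4). With UNC0642 it was 1 (C4b) by the likelihood ratio test, by DESeq2 and without the filter, and 0 to 1 with a library left out. With Romidepsin it was 0 to 1 (C4b without Romidepsin replicate 1), and with GSK2879552 it was 0 under every alternative. The numbers of genes called among all genes were 281, 58, 0, 90 and 0 for DZNep, UNC1999, UNC0642, Romidepsin and GSK2879552. They were 351, 469, 34, 498 and 68 by the likelihood ratio test, 231, 354, 4, 387 and 47 by DESeq2, and 347, 342, 173, 367 and 168 without the filter. With all retinas in 1 fit they were 218, 437, 3 and 520 for the 4 retina experiments. They were 806 without UNC1999 control replicate 3, 277 without DZNep control replicate 4 and 338 without Romidepsin replicate 1. For UNC1999 less Romidepsin the count was 1, and 0 to 2 with a library left out (0 without UNC1999 control replicate 1, 2 with C5ar1 added without control replicate 3), and for UNC1999 less UNC0642 0 to 1 (Cfi). Of the other complement genes, 7 passed with DZNep, 2 with all retinas in 1 fit, and 3 to 7 with a library left out (3 without DZNep replicate 1, 4 without replicate 2). With UNC1999 0 passed, 7 by DESeq2, without the filter and with all retinas, 8 by the likelihood ratio test, and 0 to 10 with a library left out (10 without control replicate 3). With UNC0642 1 passed by DESeq2 and 2 without the filter, and with Romidepsin 1 by DESeq2, 1 by the likelihood ratio test and 2 with all retinas. The share of all genes passing at the adjusted p alone was not counted for these alternatives.

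Log2 fold changes changed sign in 11 cases, each with 1 library left out and none past a threshold. Over the libraries left out, C1qb in sorted rods ran from −0.67 to 0.41 (also 0.34) and C1qc there from −1.41 to 0.65. With Romidepsin C1qb ran from −0.55 to 0.0084 and C1qc from −0.39 to 0.044 (also 0.0027). With UNC0642 C3 ran from −1.98 to 0.040, C5ar1 from −0.40 to 0.55 (also −0.036) and Cfi from −0.23 to 0.36 (also −0.17). The causes were not tested. Where a group was left with 1 library, that library was assumed to vary like the others. Few reads limit C5ar1 in the DZNep experiment and C3ar1, Cfi and C5ar1 in sorted rods.

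Same-numbered treated and control libraries did not deviate together throughout (r from −0.280 to 0.230), so the numbers were not taken as pairs. With the replicate number as a block, 1 of the 9 genes was called with DZNep (C3), 1 with UNC1999 (C1qc), 1 with UNC0642 (C4b, with 7 of the 9 past the adjusted p alone) and 0 with Romidepsin and GSK2879552, UNC1999 less Romidepsin had 0, Cfi with DZNep had an adjusted p = 0.0553, and 6, 0, 2, 0 and 0 of the other complement genes passed. Among all genes the block fits called 189 with DZNep, 21 with UNC1999 and 124 with UNC0642, against 281, 58 and 0 in the main fits. In UNC1999 less Romidepsin 236 of all genes passed with the block, against 883 without it. Within experiments, the share of all genes past the adjusted p alone was not counted for the block fits.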
